A study of Mus musculus with 24 samples.

Results

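The 61 genes described here lie at the proximal end of mouse Chr 17, with the smallest transcript start of each from 3.19 Mb up to 20 Mb in the deposited table. They are 61 of the 13998 genes measured. They were chosen by position and not by any measured value, though with earlier results of these data known. Genes whose names begin with Zfp were set aside, as were Agpat4, Qk, Rsph3a and Rsph3b, of which Agpat4 and Qk fell in the window. SAGE-Seq, in which each transcript is counted by a short 3′ tag, was applied to the hypothalamus of 24 adult male F2 mice, with 1 library per mouse. The question was whether hypothalamic expression differs between mice that carry different alleles across a segment of Chr 17, which begins at 3.19 Mb, extends beyond 20 Mb and therefore holds all of these genes.

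The 12 cast/cast mice were homozygous across this segment for alleles of CAST/EiJ, an inbred strain derived from wild Mus musculus castaneus, and the 12 b6/b6 mice were homozygous there for alleles of C57BL/6J (B6). Both groups were b6/b6 over the rest of the genome, and none had a recombination within the segment. Both came from an intercross that goes back to a single B6.CAST-17.1 male mated to B6 females. Both had been through a 10 d choice between a carbohydrate/protein and a fat/protein diet, had returned to chow, and were then given the same choice of diets for about 48 h before the tissue was taken. The mice were picked from a larger cohort for divergent intake, with the highest carbohydrate intake among cast/cast and the lowest among b6/b6 mice. Genotype, intake and what was eaten therefore differed together between the groups and cannot be told apart here, nor can the alleles of one gene of the segment from those of its neighbours, which the mice inherited with it.

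Proximal Chr 17 is the region of the t complex, known in wild mice for haplotypes that distort transmission through males, and Tcp1 takes its name from it. The region also holds Igf2r, a classic imprinted gene, and clusters of recently duplicated genes. In a congenic comparison, genes inside the exchanged segment carry different alleles in the groups, while genes elsewhere carry the same ones.

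Of the 61 genes, 51 are protein coding in RefSeq, and they are 51 of the 132 protein-coding genes that RefSeq places in the window. The others lay below the lowest mean of the table, carry another name or were not used here, among them 4 formyl peptide receptor genes. Another 4 genes with a RefSeq start in the window have no position in the deposited table and were not counted, namely 5830433I10Rik, A230009B12Rik, BC002059 and Gm6712. Several genes have newer names in RefSeq, where Mllt4 is Afdn, Fgfr1op is Cep43 and 2210404J11Rik is Ermard.

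A SAGE tag starts at the CATG nearest to the 3′ end of a transcript, so 1 short sequence stands for the whole gene. The tag that each called gene should give is shown here because the normalized counts below are counts of such tags. Each sequence was read from the GENCODE M21 transcripts of build GRCm38 that carry a RefSeq accession where one does, and is written 5′ to 3′ with the CATG in capitals. The deposited table gives hits per gene and not the tags themselves.

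2700054A10Rik: CATGtaggtaaactgcagggggaggtg
Mllt4: CATGgcacaaggtaccctgaccagctg
Acat3: CATGttgcatactgttctggttggtgt
Fam120b: CATGagtacgtcagtcacaagtttaaa
Serac1, first tag: CATGtagtgcccgtggagtcagcagat
Serac1, other tag: CATGtaaattagaatgtgatggaacgg
Fndc1: CATGgtacaaaaagtttgtgggagtcg
4732491K20Rik: CATGactgaggcttctacaggacaaat
Tmem181c-ps: CATGttgaacgactctgacgatgacgt
Tmem181b-ps: CATGaaatacaactgtattagaaatac
Snx9: CATGtagaaaccaatatataaataaat
Gm16702: CATGcataaacacagaataaatacata
Acat2: CATGgggattcggcttctgttacgaac
T2: CATGgtccttctgcctggtgctctctt
Psmb1: CATGcaagtatctctactgggatataa

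The tags of Mllt4, Snx9, T2, Acat3, Acat2 and Psmb1 and 1 of those of Serac1 lie in 3′ untranslated regions. Those of the non-coding genes lie in exons, at chr17:13487449-13487475 on the minus strand for 2700054A10Rik, chr17:12327096-12327122 on the plus strand for 4732491K20Rik and chr17:8379049-8379075 on the minus strand for Gm16702. The pseudogene tags lie in exons at chr17:6613762-6613788 for Tmem181c-ps and chr17:6440487-6440513 for Tmem181b-ps, both on the minus strand. On the plus strand, the tag of Mllt4 lies at chr17:13906092-13906118, that of Snx9 at chr17:5931913-5931939 and that of T2 at chr17:8422660-8422686. On the minus strand, the tags of the 2 acetyl-CoA acetyltransferase genes lie at chr17:12924068-12924094 for Acat3 and chr17:12943382-12943408 for Acat2, and that of Psmb1 at chr17:15475110-15475136. The tag of Fam120b, at chr17:15433419-15433445 on the plus strand, is in an exon of a non-coding transcript, and the coding transcript ends 20 bases after the start of the same site, within its 3′ untranslated region. The tag of Fndc1, at chr17:7741673-7741699 on the minus strand, is in a coding exon. Serac1 has transcripts that end in different exons and therefore 2 tags on the minus strand, of which the first spans a splice junction of coding exons between chr17:6044249 and chr17:6045669 and the other lies in the 3′ untranslated region at chr17:6042348-6042374. The tags of Snx9, Mllt4 and Psmb1 lie 1228, 324 and 610 bases past the gene end in the deposited table, so the authors may have counted other tags for these 3 genes. Only 1 tag of the list occurs in another gene, that of Tmem181c-ps, which Tmem181a and Tmem181b-ps transcripts also contain. Over all members, 55 of 61 had a full tag of 27 bases, and 5 had a tag that occurs without a mismatch in another gene.

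The libraries held 7754202 to 13082873 tag hits per b6/b6 mouse and 9237614 to 12078078 per cast/cast mouse, so depth overlapped fully. Libraries were compared over genes outside the segment with a mean of at least 50 normalized counts, and 9 of them stood apart, with a median correlation with the others of 0.803 to 0.908 against 0.933 to 0.948 in the other 15. They were 4 b6/b6 libraries (replicates 1, 4, 6 and 12) and 5 cast/cast libraries (replicates 1, 4, 5, 6 and 8), so both genotypes were affected, and results are given with and without them where they bear on a call. Colony numbers were uneven, with 10 of 12 cast/cast but 3 of 12 b6/b6 mice between 25014 and 26001. Gaps in the numbers set off this block from a lower and a higher one. The lower, 24278 to 24596, held 4 b6/b6 and 2 cast/cast mice, and the higher, 26480 to 26641, 5 b6/b6 and 0 cast/cast mice. With colony block as a covariate, the higher block therefore adds nothing to the genotype difference. All 10 hypothalamic neuropeptide genes checked, such as Pomc, Agrp and Npy, were in the table, and their summed level ranged from 11431 to 29639 normalized counts in b6/b6 and from 5900.1 to 34817 in cast/cast mice. The summed markers of striatum, choroid plexus, pituitary, thalamus, ependyma and blood overlapped between genotypes as well, with 704 to 5600.0 normalized counts in the b6/b6 group and 459 to 4529 in the cast/cast group for pituitary and 121 to 4999 and 105 to 782 for blood. Adora2a and Gpr6 of striatum, Aqp1 of choroid plexus, Prl, Tshb and Lhb of pituitary, Tmem212 of ependyma and the Hbb genes of blood were not among the genes tested. The pituitary sum includes Pomc, which is also part of the hypothalamic sum. Of all markers listed 1 was called, the thalamic marker Tcf7l2 (log2FC -0.84, limma P = 0.00710, adjusted P = 0.449). Fewer cells of a type and less RNA per cell cannot be told apart in such tissue.

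A gene was called when limma, fitted on log2(normalized count + 1) over all genes, gave an unadjusted P of at most 0.01 and the group means differed at least 1.5-fold in the same direction. A normalized count is the number of tag hits divided by the size factor of the library, and each log2 fold change (log2FC, with its standard error, SE) is cast/cast minus b6/b6. In all, 14 of the 61 genes were called, or 23.0%, against 1.49% of all genes tested and 0.688% of those outside the segment. Lower counts in cast/cast mice were found for 12 (1.01% of all genes were called lower) and higher counts for 2 (0.471% of all genes were called higher). The authors aligned tags to GRCm38, which is the B6 sequence. The part that CAST variants within tags had in these counts was not tested. When the adjusted P had to be 0.05 or less, 10 members were called, against 0.572% of all genes. The median log2 fold change was -0.16 over the 61 members and -0.02 over all genes, with 35 members below and 26 above 0.

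For 7 of the 14, every cast/cast mouse was below every b6/b6 mouse. Genotypes did not overlap, in either direction, for 0.336% of all genes and for 0 of the 12645 genes outside the segment. These 7 were 2700054A10Rik, Mllt4, Acat3, Fam120b, Serac1, Fndc1 and 4732491K20Rik, and no member separated the genotypes in the other direction. Calls elsewhere in the segment were similar in number per gene. From 20 Mb to the end of the segment, 88 of 347 genes (25.4%) were called. Beyond the segment on the same chromosome, 0 of 222 genes were called with limma, of which 13 had an unadjusted P under 0.05. There edgeR called 4 and DESeq2 called 0.

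**Figure D1:**
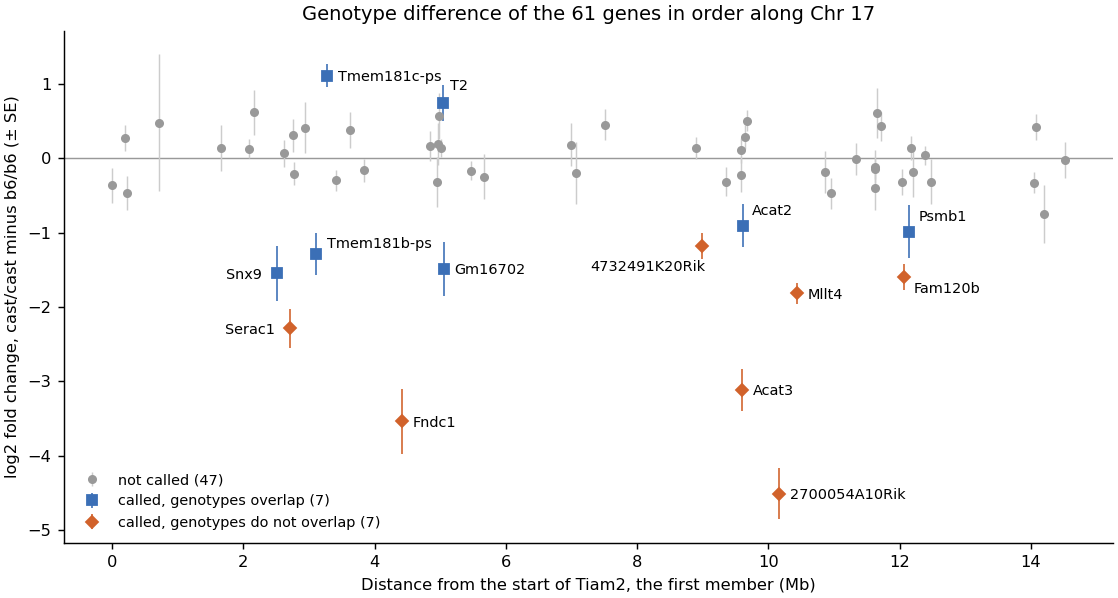
Log2 fold change (cast/cast minus b6/b6, limma, bars are standard errors) of the 61 genes against the distance in Mb from the start of Tiam2, the first member. Diamonds mark the 7 genes whose genotypes do not overlap, squares the other 7 called genes and circles the 47 that were not called, and 12 of the 14 called genes lie below 0.

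2700054A10Rik, a long non-coding RNA gene (13487020 to 13554094 bp), had the log2 fold change farthest from 0. In b6/b6 mice its lowest, median and highest values were 15.7, 44.8 and 66.6 normalized counts, and in cast/cast mice 0, 0.635 and 4.55. In 6 of the cast/cast mice no tag was counted, and in none were there more than 5 tag hits. Only 3 of them exceeded 3 tag hits, the smallest signal taken as detectable, a floor that covers counting error only. Its mean was 30.2-fold lower in cast/cast mice (log2FC -4.51, SE 0.34, limma P = 3.14e-13, adjusted P = 2.19e-10). With so few hits the size of the fold is imprecise, and the log2FC was -5.10 with a pseudocount of 0.5 and -2.96 with a pseudocount of 5.

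Mllt4, its neighbour among the members (13760540 to 13905794 bp), encodes afadin, which ties nectins at cell junctions to actin. It had 382, 491 and 537 normalized counts (lowest, median and highest) in the b6/b6 group and 69.6, 139 and 198 in the cast/cast group. The former varied little, and the highest cast/cast mouse stayed well below the lowest of them. The log2FC was -1.82 (SE 0.14, limma P = 5.73e-13, adjusted P = 3.66e-10).

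Both genes of cytosolic acetyl-CoA acetyltransferase, the enzyme that joins 2 acetyl-CoA molecules at the start of sterol synthesis, were called lower, but not to the same degree. Acat3 (12923958 to 12940396 bp) had 14.7, 30.8 and 68.7 normalized counts in the b6/b6 group and 0, 2.74 and 8.58 in the cast/cast group, without overlap. No more than 9 tag hits were counted in any cast/cast mouse and more than 3 in only 4 of them, so the size of its decrease is imprecise (log2FC -3.11, SE 0.28, limma P = 1.60e-11, adjusted P = 7.70e-09). Acat2 (12943041 to 12960725 bp), the next gene, had 176, 290.1 and 439 normalized counts in the b6/b6 group and 40.4, 237 and 291 in the cast/cast group. Most cast/cast mice lay within the b6/b6 range and only 4 lay below all of it (log2FC -0.91, SE 0.29, limma P = 0.00416, adjusted P = 0.336). The transcripts of the 2 genes share 9 CATG tags, out of 15 in Acat2 and 14 in Acat3, but their last tags differ at 14 positions, as the sequences above show. Acat3 also overlaps Tcp1 on the opposite strand, and whether the authors counted tags by strand is not given in the sources used here. The Acat3 tag listed above lies within this overlap, as do the tags of Tcp1. If tags were not counted by strand, hits there cannot be told apart.

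Fam120b and Psmb1 are also neighbours among the members. Fam120b (15396201 to 15433581 bp), which encodes a coactivator of the nuclear receptor PPARγ, had 254, 325 and 824 normalized counts in the b6/b6 group and 94.7, 122 and 153 in the cast/cast group, without overlap. Its highest b6/b6 values, 748 and 824, came from replicates 6 and 12, which are among the libraries that stood apart, while the other 10 b6/b6 mice reached no more than 404 (log2FC -1.59, SE 0.17, limma P = 8.07e-10, adjusted P = 2.97e-07).

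Serac1 (6040570 to 6079739 bp) encodes a protein of phospholipid exchange between mitochondria and endoplasmic reticulum. It had 38.1, 82.7 and 126 normalized counts in the b6/b6 group and 3.23, 16.9 and 34.6 in the cast/cast group. The genotypes came close at 34.6 and 38.1 but did not overlap (log2FC -2.29, SE 0.26, limma P = 2.63e-09, adjusted P = 8.98e-07). Serac1 overlaps Synj2 (5941279 to 6044290 bp), which was not called, on the opposite strand. The Serac1 tag in the 3′ untranslated region lies within this overlap, and the other Serac1 tag reaches into it. If tags were not counted by strand, hits there cannot be told apart. Fndc1 (7738567 to 7804974 bp), which encodes a secreted protein with fibronectin type III domains, had 27.5, 86.7 and 194 normalized counts in the b6/b6 group and 0, 7.69 and 16.1 in the cast/cast group. Its b6/b6 mice were widely spread, yet all lay above every cast/cast mouse (log2FC -3.54, SE 0.43, limma P = 8.16e-09, adjusted P = 2.66e-06). The long non-coding RNA gene 4732491K20Rik (12318852 to 12327250 bp) had 44.6, 61.1 and 84.8 normalized counts in the b6/b6 group and 12.5, 27.0 and 37.2 in the cast/cast group, also with no overlap (log2FC -1.18, SE 0.17, limma P = 2.26e-07, adjusted P = 5.86e-05). It begins next to Map3k4, a stress kinase gene that was not called.

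**Figure D2:**
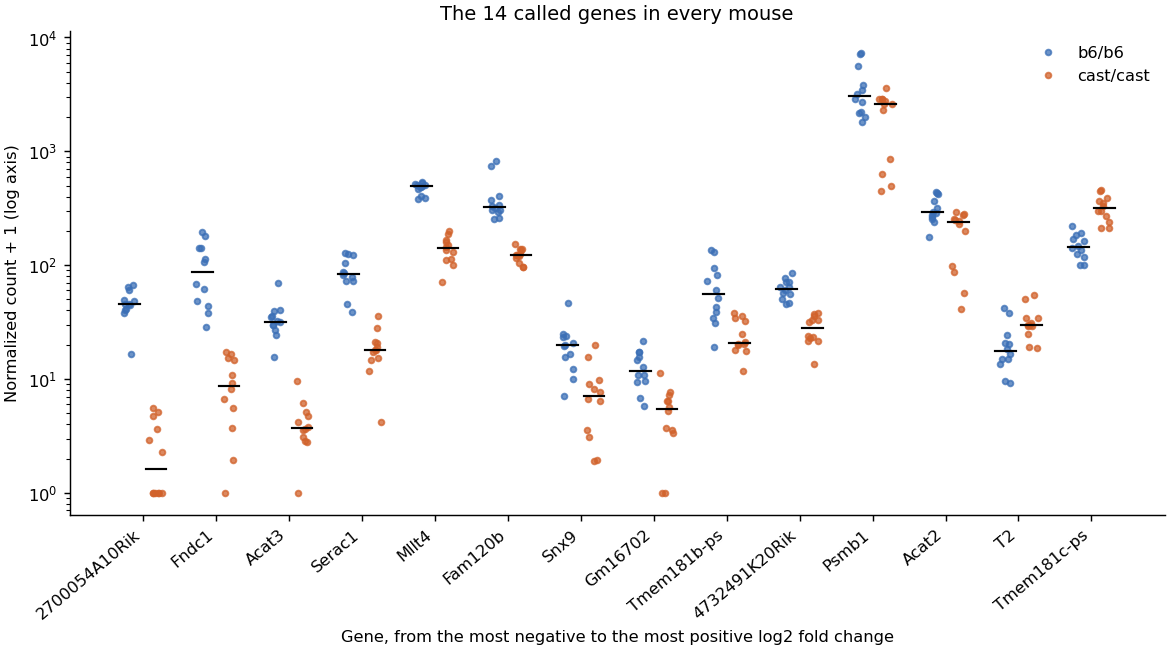
Normalized count + 1 (log axis) of the 14 called genes in every mouse, with the 12 b6/b6 mice on the left and the 12 cast/cast mice on the right of each pair and bars at the medians. Genes run from the most negative to the most positive log2 fold change, from -4.51 for 2700054A10Rik to 1.11 for Tmem181c-ps.

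The other 7 called genes had overlapping genotypes. Among them were both Tmem181 pseudogenes, which moved in opposite directions. Tmem181c-ps (6610102 to 6620925 bp) had 98.4, 144 and 218 normalized counts in the b6/b6 group and 210.1, 315 and 457 in the cast/cast group. It was higher in cast/cast mice, 10 of which lay above every b6/b6 mouse (log2FC 1.11, SE 0.16, limma P = 1.65e-07, adjusted P = 4.54e-05). Tmem181b-ps (6439001 to 6450994 bp) had 18.1, 55.0 and 134 normalized counts in the b6/b6 group and 10.7, 19.7 and 37.4 in the cast/cast group. Here 9 of the b6/b6 mice lay above every cast/cast mouse, and the highest values were again those of b6/b6 replicates 6 and 12 (log2FC -1.29, SE 0.28, limma P = 9.80e-05, adjusted P = 0.0199). Tmem181a (6270474 to 6305783 bp), the copy that codes for a membrane protein, was low in both genotypes, from 4.91 to 38.1 normalized counts in b6/b6 and from 4.58 to 49.9 in cast/cast mice, and was not called (log2FC 0.41, SE 0.34, limma P = 0.240). Because the tag of Tmem181c-ps is found in both other copies, how hits divided among the 3 is uncertain.

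Snx9 (5841379 to 5930711 bp) encodes a sorting nexin that shapes membranes during endocytosis. It was near the lower end of expression, with 6.14, 18.8 and 45.65 normalized counts in the b6/b6 group and 0.916, 6.11 and 19.0 in the cast/cast group, and 6 cast/cast mice were below every b6/b6 mouse (log2FC -1.55, SE 0.37, limma P = 0.000237, adjusted P = 0.0442). T2 (8372395 to 8422726 bp), known as brachyury 2, contains the long non-coding RNA gene Gm16702 (8379044 to 8389468 bp) on its opposite strand. The pair was called in opposite directions, but if tags were not counted by strand, hits within their overlap cannot be told apart. Of their tags listed above, that of Gm16702 lies within the overlap and that of T2 outside it. T2 had 8.30, 16.5 and 40.7 normalized counts in the b6/b6 group and 17.6, 28.8 and 53.4 in the cast/cast group, with wide overlap (log2FC 0.74, SE 0.24, limma P = 0.00481, adjusted P = 0.370). Gm16702 had 4.79, 10.8 and 20.8 normalized counts in the b6/b6 group and 0, 4.47 and 10.4 in the cast/cast group, of which 7 were below every b6/b6 mouse (log2FC -1.49, SE 0.36, limma P = 0.000312, adjusted P = 0.0533).

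Psmb1 (15475720 to 15498276 bp), which encodes a subunit of the proteasome core, had the highest normalized counts and the highest P of the called genes. It had 1796, 3046 and 7270.1 normalized counts in the b6/b6 group and 445, 2601 and 3614 in the cast/cast group (log2FC -0.99, SE 0.35, limma P = 0.00943, adjusted P = 0.482). Only 4 cast/cast mice lay below the b6/b6 range, at 445, 490.2, 625 and 856 normalized counts, and all 4 (replicates 4, 5, 6 and 8) were among the libraries that stood apart. The 7 cast/cast libraries that did not stand apart ranged from 2319 to 2875 for Psmb1, within the 2200.1 to 7270.1 of the corresponding 8 b6/b6 libraries. Without the 9 libraries Psmb1 missed the call, with a log2FC of -0.60 (limma P = 0.0117).

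Acat2 showed the same 4 libraries at the bottom, with 40.4, 55.9, 85.8 and 98.3 normalized counts, against 199 to 291 in the 7 cast/cast libraries that did not stand apart. Those 7 still overlapped with the 263 to 439 of the corresponding 8 b6/b6 libraries. Without the 9 libraries the log2 fold change of Acat2 was -0.45 (limma P = 0.00470), with a ratio of means of 0.722, short of the limit. Another member was high in the same libraries. Arid1b, which encodes a subunit of the BAF chromatin remodelling complex, had 1733 to 4293 normalized counts in these 4 and 639 to 875 in the 7. The b6/b6 libraries that stood apart went both ways, with 2477 and 1868 in replicates 1 and 4 but 575 and 574 in replicates 6 and 12. The other 8 b6/b6 libraries had 730 to 1414. Arid1b was not called in all mice, and leaving out the 9 libraries turned its log2 fold change from 0.14 to -0.42 (limma P = 0.0115). What set these libraries apart was not tested.

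**Figure D3:**
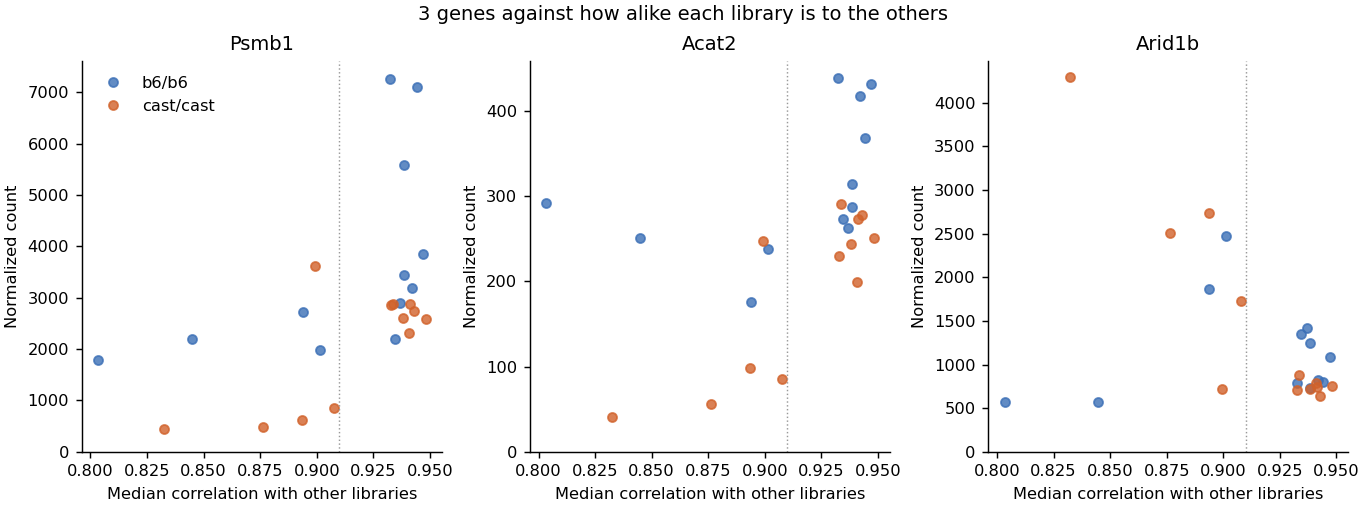
Normalized count of Psmb1, Acat2 and Arid1b in each mouse against the median correlation of its library with the other libraries, over genes outside the segment with a mean of at least 50. The dotted line is at 0.91, and to its left 4 cast/cast libraries are low for Psmb1 and Acat2 and high for Arid1b. The b6/b6 libraries to its left are both high and low for Arid1b.

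By position, 1 of 9 members up to 6 Mb was called, 6 of 19 from 6 to 9 Mb, 0 of 3 from 9 to 12 Mb, 5 of 11 from 12 to 14 Mb, 2 of 15 from 14 to 16 Mb and 0 of 4 beyond. Differences between these small counts were not tested. The 8 members beyond Psmb1 were not called. Called genes formed 5 pairs of neighbours in the order of members, with starts 0.00665 Mb apart for T2 and Gm16702, 0.0191 Mb for Acat3 and Acat2, 0.0795 Mb for Fam120b and Psmb1, 0.171 Mb for Tmem181b-ps and Tmem181c-ps and 0.2735 Mb for 2700054A10Rik and Mllt4.

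Of all 61 members 19.7% were called lower, against 1.01% of all genes, and differences between the gene groups below were not tested. Among mitochondrial and metabolic genes, 4 of 9 members were lower and 0 higher, with a median log2 fold change of -0.32 against -0.02 over all genes. The 4 were Serac1, Acat3, Acat2 and Fam120b, of which the acetyltransferases are cytosolic and Fam120b acts on a nuclear receptor. The 3 members with the highest mean in this group were not called. Mrpl18, a protein of the mitochondrial ribosome, ranged from 2253 to 4939 normalized counts in b6/b6 and from 2173 to 5413 in cast/cast mice (log2FC 0.10, SE 0.17, limma P = 0.554). Mpc1, a subunit of the mitochondrial pyruvate carrier, ranged from 723 to 3370.3 and from 376 to 2892 (log2FC -0.32, SE 0.33, limma P = 0.340). Sod2, the superoxide dismutase of mitochondria, came closest to a call.

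Sod2 (13007838 to 13018119 bp) had 482, 699.7 and 766 normalized counts in the b6/b6 group and 542, 970.0 and 1204 in the cast/cast group, 8 of which lay above every b6/b6 mouse. It was the only member with P of at most 0.01 that missed the ratio, which was 1.44 (log2FC 0.50, SE 0.14, limma P = 0.00121, adjusted P = 0.161). Its tag lies past the gene end of the deposited table and comes within 2 mismatches of 56 other genes, so hits may belong elsewhere.

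Conversely, Sft2d1, a Golgi transport protein gene (ratio 1.59, limma P = 0.0816), and 9030025P20Rik (ratio 1.87, limma P = 0.0818) were among the members with means at least 1.5-fold apart but P above 0.01, and both depended on the libraries that stood apart. For Sft2d1, the remaining 8 b6/b6 libraries had 38.3 to 134 normalized counts and the remaining 7 cast/cast libraries 144 to 194, without overlap, while 4 of the 5 cast/cast libraries that stood apart had 35.6 to 63.8. Without the 9 libraries it was called higher (log2FC 1.19, SE 0.23, limma P = 6.23e-05, adjusted P = 0.0110), where 2.25% of genes outside the segment were called. With colony block as a covariate its log2FC was near 0, at -0.0018 (limma P = 0.996). For 9030025P20Rik, the median was 16.1 normalized counts in the 5 cast/cast libraries that stood apart, but 3.78 in the other cast/cast and 4.05 in the other b6/b6 libraries. Without the 9 libraries its ratio was 1.19 (limma P = 0.527). The tag of Sft2d1 also occurs without a mismatch in Gm12166, and that of 9030025P20Rik in Gm3435, so hits may belong elsewhere.

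Of the 9 nuclear and RNA genes, 0 were called by limma, edgeR or DESeq2 and 1 had an unadjusted P under 0.05, with a median log2 fold change of 0.04. Wtap, a subunit of the RNA adenosine methyltransferase complex, had the highest mean of all members and ranged from 2522 to 5313 normalized counts in b6/b6 and from 2688 to 7041 in cast/cast mice (log2FC 0.28, SE 0.16, limma P = 0.0980). Arid1b ranged from 574 to 2477 and from 639 to 4293 (log2FC 0.14, SE 0.31, limma P = 0.668). Tulp4, a tubby-like gene, ranged from 714 to 1840.3 and from 656 to 1552 (log2FC -0.21, SE 0.16, limma P = 0.202).

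Kinases, phosphodiesterase and GTPase regulators likewise gave 0 calls among 6 members by the 3 tools and 0 with an unadjusted P under 0.05. Rps6ka2, a ribosomal S6 kinase gene, ranged from 851 to 1741 normalized counts in b6/b6 and from 694 to 1639.6 in cast/cast mice (log2FC -0.16, SE 0.15). For Map3k4 the log2FC was 0.13 (SE 0.14), and for Pde10a, a cyclic nucleotide phosphodiesterase best known from striatum, -0.17 (SE 0.12). Tiam2, an activator of the GTPase Rac and the first member by position, was low, with 8.31 to 55.0 normalized counts over all mice (log2FC -0.37, SE 0.23, limma P = 0.125).

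Membrane traffic, cytoskeleton and cilia genes had 2 of 9 members lower, Snx9 and Mllt4, and 0 higher (19.7% of all members were lower). The 3 with the highest means were not called. Tmem242, a small membrane protein gene, had a log2FC of 0.12 (SE 0.13). Tcp1, the founding subunit of the TRiC chaperonin, ranged from 421 to 1907 normalized counts in b6/b6 and from 298 to 774 in cast/cast mice. Its high end came from b6/b6 replicates 6 and 12, at 1519 and 1907, while the other b6/b6 mice reached at most 604 (log2FC -0.22, SE 0.23, limma P = 0.335). Zdhhc14, a protein palmitoyltransferase gene, ranged from 135 to 862 and from 296 to 1229.6 (log2FC 0.61, SE 0.30, limma P = 0.0523). Its median was 1125 in the 5 cast/cast libraries that stood apart and 432 in the 4 b6/b6 ones, but 529 and 526 in the others, and without the 9 libraries the log2FC was 0.045 (limma P = 0.860).

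Secreted and surface genes had 2 of 10 members lower (19.7% of all members were lower). They were Fndc1 and Psmb1, the latter placed in this list although it encodes a proteasome subunit. Dact2, a modulator of Wnt and TGFβ signalling, ranged from 113 to 578 normalized counts in b6/b6 and from 74.7 to 415 in cast/cast mice (log2FC -0.19, SE 0.28). Rgmb, a coreceptor of bone morphogenetic proteins, had a log2FC of -0.32 (SE 0.30). Has1, a hyaluronan synthase gene and the last member by position, was low and alike in its medians, at 20.9 and 21.4 normalized counts (log2FC -0.02, SE 0.24). No chemoattractant or vomeronasal receptor was among the members.

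Igf2r, the receptor that clears insulin-like growth factor 2, was the only member of its imprinted cluster. It ranged from 63.3 to 129 normalized counts in b6/b6 and from 30.5 to 118 in cast/cast mice (log2FC -0.32, SE 0.20, limma P = 0.124). Prr18 (log2FC 0.13, SE 0.12) and T2 were the 2 named genes outside the lists. Of the 12 genes with LOC, Gm or Rik names, 3 were lower and 0 higher (19.7% of all members were lower). The 3 were 2700054A10Rik, 4732491K20Rik and Gm16702. The Rik gene with the highest mean, 4930470H14Rik, a long non-coding RNA, ranged from 8.99 to 1088 normalized counts in b6/b6 and from 15.2 to 992 in cast/cast mice. The spread within each genotype was larger than the difference between them (log2FC 0.47, SE 0.92, limma P = 0.609). The next by mean were 2210404J11Rik (log2FC 0.42, limma P = 0.0418, adjusted P = 0.607) and 4930506C21Rik (log2FC 0.19, limma P = 0.509).

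**Figure D4:**
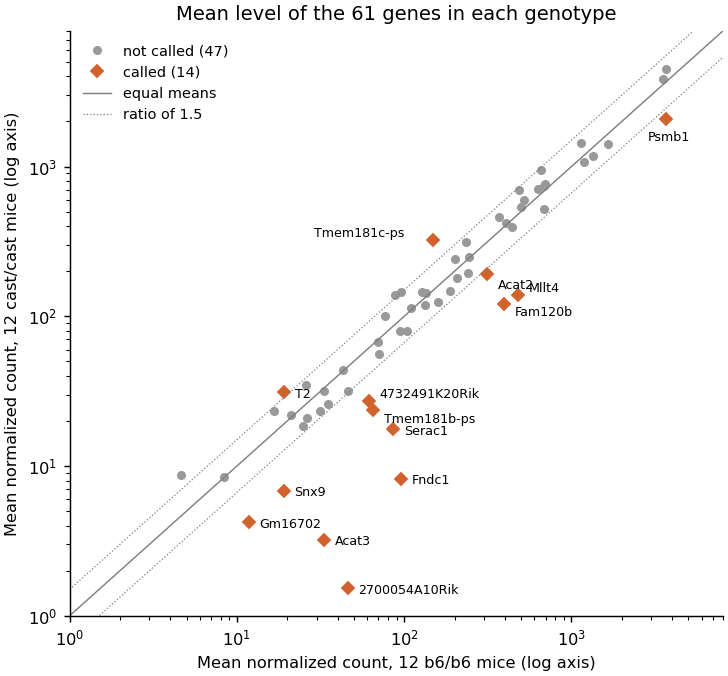
Mean normalized count of each of the 61 genes in 12 cast/cast mice against that in 12 b6/b6 mice (log axes), with lines for equal means and for a ratio of 1.5. The 14 called genes span means over all mice from 7.98 to 2880 normalized counts, and those farthest below the line are 2700054A10Rik, Fndc1 and Acat3.

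Of the 47 members that were not called, 42 differed by less than 0.5 on the log2 scale, with a median standard error of 0.22. Among the 47, 7 had an unadjusted P under 0.05 (14.9%, against 8.13% of all genes). Called genes were not limited to one level of expression, but genes with low counts made up a larger share of them than of all members. A mean under 50 normalized counts was found for 7 of the 14 called genes and for 19 of all 61 members. Whether calls depended on the level of expression was not tested. The median coefficient of variation between mice over members was 32.6% for b6/b6 and 35.8% for cast/cast, against 37.5% and 36.6% over all genes.

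Genes outside the segment that belong to the same complex, family or pathway as a gene of the window were listed too, and 55 of them were tested. Of these, 1 was called (1.82%, against 1.49% of all genes) and 5 had an unadjusted P under 0.05 (9.09%, against 8.13% of all genes). The called gene was Smarcd1, a BAF subunit, at 705 ± 358 normalized counts (mean and SD of 12 mice) for b6/b6 and 1197 ± 453 for cast/cast (log2FC 0.90, limma P = 0.00344, adjusted P = 0.311). It is 1 of 16 BAF and PBAF subunits tested. Of the 13 proteasome core subunits besides Psmb1, 0 were called by limma and 0 had an unadjusted P under 0.05, with log2 fold changes from -0.34 to 0.23. Among 7 TRiC subunits besides Tcp1, 0 were called and 1 had an unadjusted P under 0.05 (log2 fold changes from -0.56 to 0.04). The dynein light chains (5 tested), superoxide dismutases (2), insulin-like growth factor genes (7), partners of Wtap (4) and the pyruvate carrier partner (1) had 0 called by limma, and 3 of them had an unadjusted P under 0.05. Over all 55, edgeR and DESeq2 each called 2.

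The labels also give the kcal that each mouse ate from the carbohydrate/protein diet in the 10 d test. Within each genotype, the log2 expression of the 14 called genes was correlated with this intake, which makes 28 correlations over 12 mice each. By permutation, 2 had an unadjusted Pearson P under 0.05, both in b6/b6 mice, and 1 an unadjusted Spearman P under 0.05, in cast/cast mice. For Tmem181c-ps Pearson's r was 0.66 (permutation P = 0.0189) and Spearman's rho 0.56 (permutation P = 0.0595), and r was 0.63 without the 2 mice farthest from the median intake. For Fam120b r was -0.64 (permutation P = 0.0293) and rho -0.38 (permutation P = 0.225), and r was -0.20 without those 2 mice. For Mllt4 in cast/cast mice rho was 0.61 (permutation P = 0.0403) and r 0.51 (permutation P = 0.0955), or 0.50 without the 2 mice farthest from the median intake. After Benjamini-Hochberg adjustment over the 28, 0 held, the lowest adjusted permutation P being 0.410 for r and 0.5125 for rho.

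Of the 14 calls, 9 were made in each of the 12 alternative settings in which the gene was tested, namely 2700054A10Rik, Mllt4, Acat3, Fam120b, Serac1, Fndc1, 4732491K20Rik, Tmem181b-ps and Tmem181c-ps. The others were lost in some, Psmb1 in 6, Acat2 in 4, T2 in 3, Gm16702 in 2 and Snx9 in 1. Of the 12 settings, the one with no minimum mean could not differ from the main fit. The lowest mean of any gene, 6.03 normalized counts, is above the limit of 5. In the mice with colony numbers from 25014 to 26001, 10 cast/cast and 3 b6/b6, 10 members were called, of which 9 were among the 14. The other was Smoc2, a matricellular protein gene, named after its value was seen (log2FC -1.07, limma P = 0.00549, adjusted P = 0.949). In all mice Smoc2 was not called (log2FC -0.48, limma P = 0.0300, adjusted P = 0.586). Sft2d1 was gained without the 4 and without the 9 libraries.

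**Figure D5:**
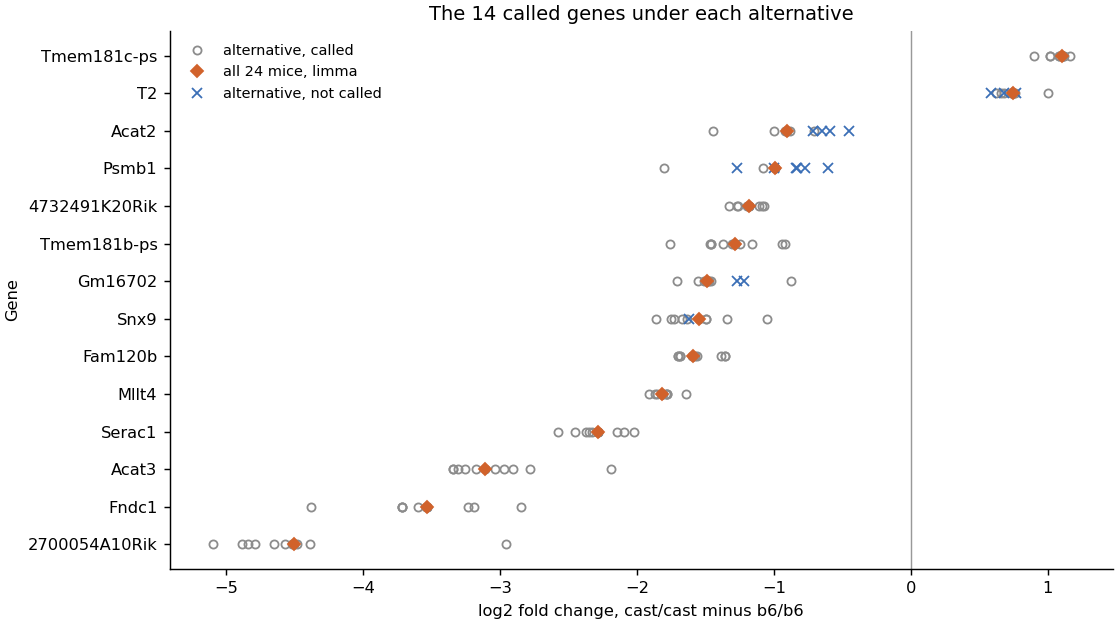
Log2 fold change (cast/cast minus b6/b6) of the 14 called genes in all 24 mice with limma (diamonds) and under each alternative, where circles mark alternatives that call the gene and crosses those that do not. Every value keeps its sign, and crosses appear for Psmb1, Acat2, T2, Gm16702 and Snx9 only.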

How the data were processed

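Hypothalamus RNA of 24 mice was analysed, 12 of each genotype as the labels give it, and replicate numbers only name mice. The signal values deposited by the authors are normalized counts, that is, SOLiD SAGE tag hits per gene divided by the DESeq size factor of each library, after their alignment to GRCm38 and RefSeq mRNA with a changed version of the SOLiD SAGE software. GRCm38 is the B6 sequence, and the part that CAST variants within tags had in the counts was not tested. The authors also deposited their own DESeq comparison (ratio or fold change, its log2, p-value and adjusted p-value), which was not used.

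Each library's values were multiples of a single step (100%, tolerance 0.01), which gave back the tag hits. The 19529 rows hold 13998 genes, each used 1 time. The lowest mean was 6.03 normalized counts, so genes below it were not analysed here.

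Log2(normalized count + 1) was fitted with limma 3.58.1 (lmFit, eBayes with a trend) over all genes with a mean of at least 5, without covariates, with Benjamini-Hochberg adjustment over all of them. The call limits are those of the study's methods. Alternatives were other pseudocounts (0.5, 5), other minimum means (20, none), equal totals for all libraries, edgeR 4.0.16 and DESeq2 1.42.0 on the tag hits, study number or colony block as covariate, colony numbers 25014 to 26001 only, and other call limits. With a covariate, the ratio of group means was left unadjusted. Leaving out the 4 or the 9 libraries farthest from the others was added after seeing the data. The fits were tested on simulated data first.

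The members, role lists, partner lists and markers were chosen with earlier results of these data known. Genes named in the text are called members, members whose genotypes do not overlap, the 3 members with the highest mean in each role list, the first and last member, members of copy families and called partner genes. Sft2d1, 9030025P20Rik and Smoc2 were named after their values were seen. Members not named are covered by counts and ranges. Tag sequences came from GENCODE M21 transcripts (GRCm38), which held 59 of the 61 members. Positions are those of the deposited table, and 60 members matched a RefSeq symbol or synonym there. Python 3.11.15, pandas 2.3.3, scipy 1.17.1 and R 4.3.3 were used. Permutation tests of correlations used 100000 resamples.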

Additional observations from a re-analysis of the deposited data

How the results depend on the processing

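The count of called members was 14 in all mice and 10 to 15 under every alternative, and the count without overlap was 7 in all mice and 6 to 9. The median log2 fold change of members stayed between -0.26 and -0.07. It was lowest with libraries rescaled to the same total, which moved the median of all genes from -0.02 to -0.11. The share of genes called outside the segment ranged from 0.119% in colony numbers 25014 to 26001 to 2.25% without the 9 libraries. The called partner genes numbered 1 in all mice, 2 with edgeR and 2 with DESeq2, but 0 with colony block as covariate and 0 without the 4 libraries. The cause was not tested.

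No called member changed sign. Named members that were not called did so in 22 cases, again without a test of the cause. These do not include Sft2d1, named after its values were seen, which turned to -0.0018 with colony block as covariate. Has1 turned to 0.056 with edgeR, 0.067 with DESeq2, 0.013 with study number as covariate, 0.36 in colony numbers 25014 to 26001, 0.11 without the 4 and 0.076 without the 9 libraries. 4930470H14Rik turned to -0.054 with study number and -1.27 with colony block as covariate. With colony block, Rps6ka2 turned to 0.095, Mrpl18 to -0.16 and Dact2 to 0.34. In colony numbers 25014 to 26001, Prr18 turned to -0.0085 and Tcp1 to 0.17. Without the 4 libraries the values were -0.34 for Arid1b, -0.084 for 4930506C21Rik, 0.15 for Tcp1 and 0.074 for Rgmb, and without the 9 they were -0.42, -0.30, 0.039 and 0.18, with 0.099 for Igf2r.

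No paired analysis was possible because the labels give no replicate numbers shared between genotypes. Genes with few hits in cast/cast mice, such as 2700054A10Rik, Gm16702, Snx9 and Acat3, have imprecise folds. A minimum mean of 20 removed the last 3 and left 11 calls. Mice were selected by intake, so P values describe the selected mice.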
